A study of Mus musculus with 3 samples.

Results

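The loci of 6 activity-regulated plasticity genes, Arc, Npas4, Homer1, Gadd45b, Nptx2 and Inhba, were examined for accessible chromatin in the dentate gyrus. The members were all ATAC-seq peaks in 6 fixed windows of 55 to 170 kb around these genes, given on the mouse build mm9: 25 joined regions of 84529 in the whole series. ATAC-seq reads out where the transposase Tn5 can reach DNA, and each deposited list gives such stretches as peaks with a score. The 3 libraries came from microdissected dentate gyrus of C57BL/6 mice 8 weeks of age, 1 mouse to a library. They carry the same group label, E24, whose meaning the labels do not give, and no transgene or treatment is named for them. The series concerns chromatin change after neuronal activation, but with 1 group no contrast of active and resting tissue was made, and no test was run. Peaks were joined into 1 region where they overlapped by at least 1 bp, and a region with a peak in each of the 3 mice is called shared.

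Activity-regulated genes are transcribed within a short time of synaptic input and calcium entry, partly through factors that bind cAMP response elements (CREs), serum response elements and distal enhancers. Their products feed back on the synapse. Npas4 is a transcription factor that controls programs of inhibitory and excitatory synapses, and Gadd45b is a stress-response protein linked to active DNA demethylation in neurons. Arc promotes the removal of AMPA-type glutamate receptors from synapses. Homer1 is a scaffold of the postsynaptic density with a short isoform made after activity. Nptx2 is a secreted pentraxin that clusters AMPA receptors, and Inhba is the subunit from which the growth factor activin A is made.

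The RefSeq promoter table held 4 of the 6 genes, and the 250 bases before the start site of Npas4, Homer1 and Gadd45b are shown because they differ in the activity-related motifs they hold. They are written 5' to 3' on the strand of the gene, with motif matches in capitals. The build of the table is GRCm38.p6, so these positions cannot be set beside the mm9 peaks, and no peak was assigned to a promoter. The Npas4 stretch is chr19:4989972-4990221 (minus strand), that of Homer1 is chr13:93303507-93303756 (plus strand), and that of Gadd45b is chr10:80929841-80930090 (plus strand).
Npas4: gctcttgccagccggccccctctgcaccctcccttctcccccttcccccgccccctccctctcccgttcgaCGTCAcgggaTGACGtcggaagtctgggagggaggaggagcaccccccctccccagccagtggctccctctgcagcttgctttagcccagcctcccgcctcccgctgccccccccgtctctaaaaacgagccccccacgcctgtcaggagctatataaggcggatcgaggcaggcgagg
Homer1: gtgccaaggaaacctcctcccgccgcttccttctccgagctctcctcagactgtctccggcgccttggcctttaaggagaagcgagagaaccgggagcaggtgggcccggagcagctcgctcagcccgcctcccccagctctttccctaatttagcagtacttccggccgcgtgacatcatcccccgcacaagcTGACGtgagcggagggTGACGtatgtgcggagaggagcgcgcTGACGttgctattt
Gadd45b: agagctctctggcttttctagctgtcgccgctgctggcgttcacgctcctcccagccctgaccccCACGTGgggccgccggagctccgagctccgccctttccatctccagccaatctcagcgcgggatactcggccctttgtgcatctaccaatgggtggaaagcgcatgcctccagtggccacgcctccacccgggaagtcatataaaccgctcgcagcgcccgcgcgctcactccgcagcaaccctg

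The motifs searched on both strands were the full CRE (TGACGTCA), the CRE core (TGACG, which the full CRE contains), an E-box (CACGTG) and an AP-1 site (TGANTCA). The CRE core occurred 2 times before Npas4, beginning 179 and 169 bases from the start, and 3 times before Homer1, beginning 56, 40 and 14 bases from it. Of the 32851 promoters in the table, 17.8% held the CRE core in the same stretch. Gadd45b held 1 E-box, 185 bases from the start, a motif found in 6.02% of promoters. Neither the full CRE (1.55% of promoters) nor the AP-1 site (6.75%) was found in the stretches of these 3 genes, of Inhba or of the other listed start of Homer1. Inhba and that other start of Homer1 also held no CRE core and no E-box. The 3 stretches shown are thus the only ones of the 5 listed starts with a match. The base composition also differed, with 68.8% G and C before Npas4, 62.4% in the Homer1 stretch shown and 65.2% before Gadd45b. It was 46.8% before the other start of Homer1 and 43.2% before Inhba, with a median of 52.4% over all promoters. A match describes letters only, and these stretches do not cover distal enhancers.

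Of the 25 regions, 14 (56.0%) were shared by the 3 mice, against 43.6% of all regions in the series. The exact 95% binomial interval of the 56.0% ran from 34.9% to 75.6%. It treats the 25 regions as independent, but they lie together in a few windows and come from the same 3 mice. The interval therefore cannot serve as a test, and no difference from the share of all regions is read. When peaks had to overlap by 50% of both, the order turned, with 26.5% at the loci against 32.5% of all regions. It also turned in the highest-scoring 50% of each list, with 45.5% against 50.4%. Another 4 regions had peaks in 2 mice (16.0%, against 23.1% of all regions) and 7 in 1 mouse (28.0%, against 33.4%). Each locus held at least 1 shared region. Replicate 1 had 19 peaks in the windows, replicate 2 had 21 and replicate 3 had 19, a mean of 19.7 ± 1.15 (SD, n = 3). These numbers lay close together although the full lists held 62912, 68699 and 48769 peaks. The count of replicate 3 includes 2 regions split into 2 peaks in that mouse alone. With the same number of top peaks in every list the spread was wider, at 15.7 ± 3.06.

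**Figure D1:**
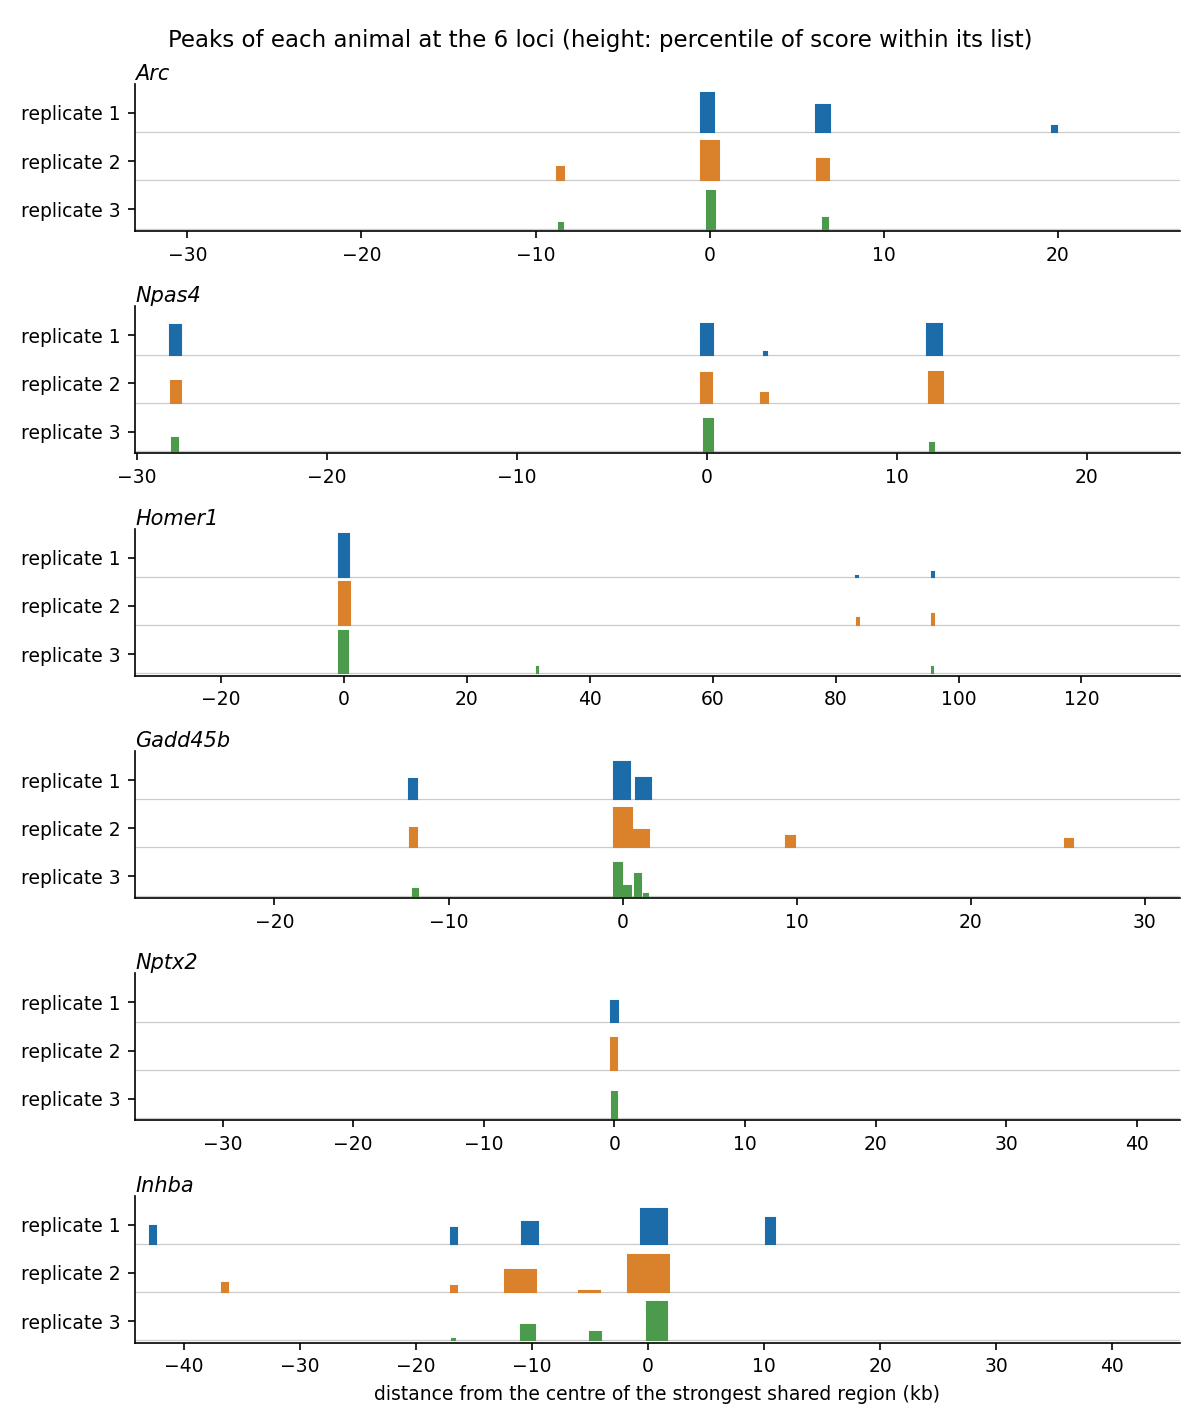
Peaks of each mouse along the 6 windows. The x axis is the distance in kb from the centre of the shared region with the highest mean percentile at that locus, each box is 1 peak, and its height is the percentile of its score within its own list (full row height would be just over 100). Nptx2 has a single peak per mouse, while Inhba has the widest peaks.

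The number of shared regions differed between loci. Npas4 and Gadd45b were the densest, with 3 shared regions in 55 kb (5.45 per 100 kb) and 3 in 60 kb (5.0 per 100 kb). When the chromosomes were cut into tiles of the same length, 6.98% of tiles held at least as many as Npas4 and 8.54% at least as many as Gadd45b. The tiles covered whole chromosomes, while the windows were placed on genes, so the 2 are not alike. With windows shortened by 10 kb at each end, Npas4 held 2 shared regions and Gadd45b still 3. Inhba had 3 in 90 kb, reached by 17.6% of tiles, and Arc 2 in 60 kb, reached by 23.0%. Homer1 had only 2 in its 170 kb, reached by 59.6% of tiles, and Nptx2 had 1 in 80 kb, reached by 60.0%. Homer1 and Nptx2 thus did not stand out by number of regions, and the windows were not of equal length. A window may also hold chromatin of other genes, which was not determined on mm9. In the RefSeq order of protein-coding genes, Npas4 lies between Mrpl11 and Slc29a2, Gadd45b between Lmnb2 and Gng7, Arc between Mroh4 and Jrk, and Homer1 between Tent2 and Jmy.

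The length under peaks gave another order of the loci. Inhba had 5.95% of its window under peaks in replicate 1, 10.1% in replicate 2 and 4.62% in replicate 3, which was 4.16 ± 0.91 times the share of chromosome 13 in the same mouse (SD, n = 3). Npas4 stood at 2.94 ± 0.41 times chromosome 19, Gadd45b at 2.28 ± 0.36 times chromosome 10 and Arc at 1.70 ± 0.13 times chromosome 15. For these 4 loci the window lay above the chromosome in each mouse. Homer1 was at 0.84 ± 0.17 times its chromosome, below it in replicates 1 and 2 and at 1.04 in replicate 3. Nptx2 was below its chromosome in each mouse, at 0.54 ± 0.20 times. Over the 6 windows, 2.83%, 3.82% and 1.96% lay under peaks in replicates 1, 2 and 3 (2.87% ± 0.932, SD, n = 3), against 1.49%, 1.66% and 0.823% of all chromosomes. The ratio was 2.20 ± 0.25, and 1.55 ± 0.12 over the 5 windows without Inhba, a choice made after seeing the data. The share of a chromosome was taken from its first to its last peak, while the windows were placed on genes. The 2 are therefore not alike, and no excess over windows on other genes is read from these ratios.

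**Figure D2:**
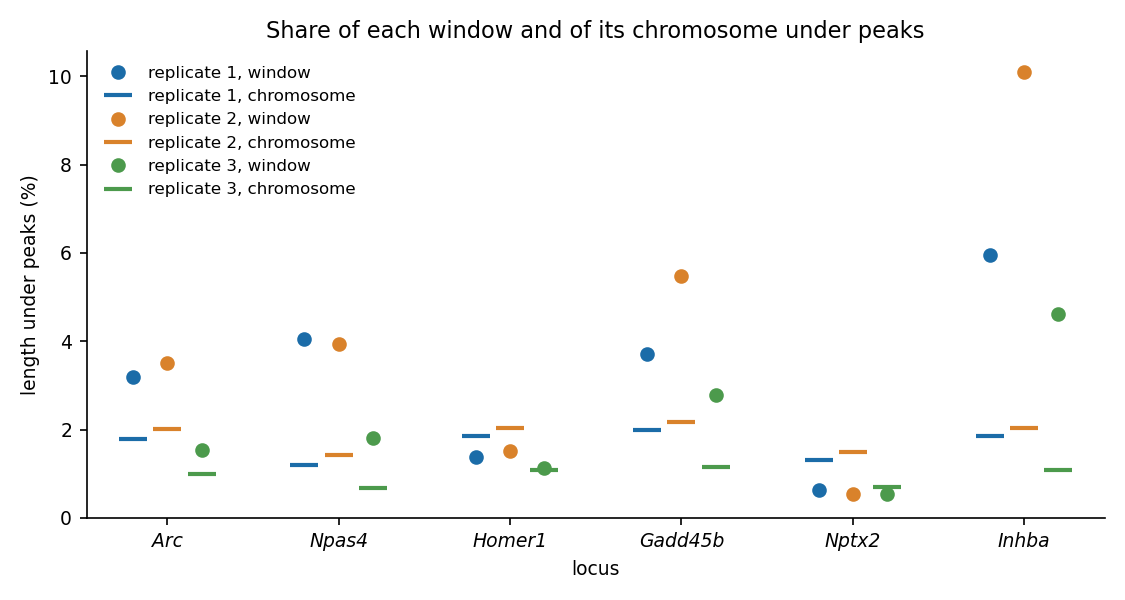
Share of length under peaks (y axis, %) in each window (points) and in the chromosome that holds it (dashes), by mouse. At Arc, Npas4, Gadd45b and Inhba the points lie above the dashes of the same mouse. At Nptx2 they lie below.

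The deposited score has no stated unit, starts at 50 and depends on read depth. Scores are given as deposited, a raw difference or ratio between mice is not read as one of accessibility, and regions were compared through ranks or by setting a ratio beside the same ratio over all shared regions. The percentile within a list is the share of that list's peaks with a score at or below the peak, using the highest peak of a mouse in a region. The shared regions of the 6 loci had a median percentile of 65.5 in replicate 1, 60.0 in replicate 2 and 43.1 in replicate 3, a mean of 56.2 ± 11.6 (SD, n = 3). All shared regions of the series had medians of 69.9, 72.3 and 61.5 in the same mice. The shared regions of these loci thus had lower median ranks than shared regions at large in each mouse, a difference that was not tested. Of the 14, 1 (7.14%), at Homer1, was in the highest-scoring 10% of all 3 lists, against 11.7% of all shared regions and 5.1% of all regions. With 14 regions, such a count is near the background.

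Since the lists differ in length, ranks were compared between mice on the 36824 regions shared by the 3, a set common to every list; this value is called the common rank, from 0 to 100. Of the 14 regions, 4 had a mean common rank well above 50, namely the strongest ones of Homer1, Arc, Gadd45b and Inhba, and the strongest of Npas4 lay just above it. Another 5 lay under 25. Such counts were not taken over all shared regions, so no difference from the series is read from them. The SD of the common rank over the 3 mice had a median of 8.86 in these regions, against 8.59 over all shared regions.

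**Figure D3:**
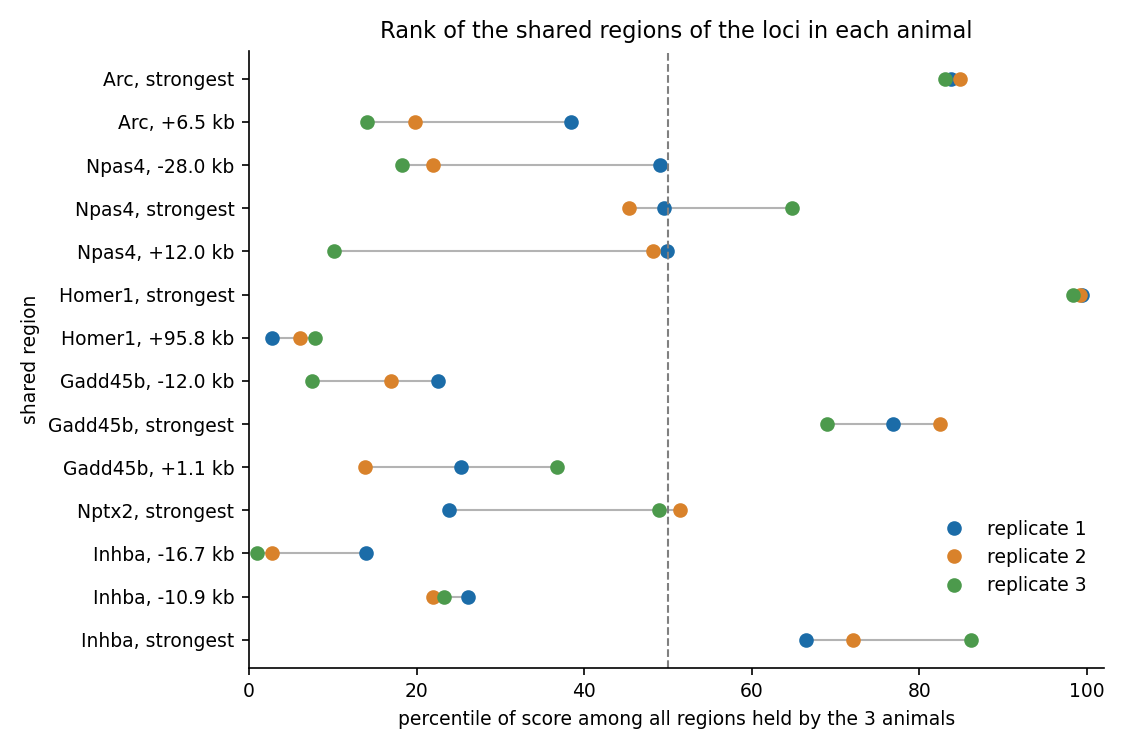
Common rank of the 14 shared regions (x axis, percentile of the score among all regions shared by the 3 mice), 1 row per region, 1 point per mouse, with distances from the strongest region of the locus. The strongest Homer1 and Arc regions have nearly the same rank in each mouse, while the Npas4 region at 12.0 kb spreads widely. The dashed line marks 50.

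Among the nuclear regulators, the strongest Npas4 region lay at chr19:4989724-4990390, 667 bp wide. Its score was 204.86 in replicate 1, 230.64 in replicate 2 and 167.21 in replicate 3, with common ranks of 49.5, 45.3 and 64.8 (mean 53.2 ± 10.3, SD, n = 3). The region was of middling rank in each mouse, highest in replicate 3. A shared region 12.0 kb away, at chr19:5001629-5002468, scored 206.78 and 244.53 in replicates 1 and 2 but 61.17 in replicate 3, which is close to the floor of the score. Its common ranks were 49.9, 48.2 and 10.1, and its ratio of replicate 3 to replicate 1, 0.30, was as low or lower in only 3.76% of all shared regions. The remaining shared region, at chr19:4961779-4962385, had scores of 202.94, 135.11 and 70.80. Its common ranks were 49.0, 22.0 and 18.3, the highest in replicate 1 as at 12.0 kb. A narrow region 3.0 kb from the strongest, at chr19:4992916-4993261, was called in replicates 1 and 2 alone, at scores of 54.79 and 73.91.

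Gadd45b had the closest pair of shared regions. The strongest, at chr10:80392460-80393495 (1036 bp), scored 394.13 in replicate 1, 591.01 in replicate 2 and 184.03 in replicate 3, with common ranks of 76.8, 82.5 and 69.0 (mean 76.1 ± 6.78, SD, n = 3). The neighbour, at chr10:80393607-80394595 (989 bp), scored 121.41, 106.31 and 97.28, with common ranks of 25.3, 13.8 and 36.7 (mean 25.2 ± 11.4). By common rank, replicate 2 was the highest and replicate 3 the lowest at the stronger region, and the reverse held at its neighbour. In replicate 3 each of these regions was called as 2 peaks where the other mice had 1, a pattern found in 3.56% of all shared regions. The narrower peaks of that list (median 353 bp, against 504 bp in each of the others) go with this, and their part in it was not tested. The third shared region, at chr10:80380729-80381211, was weak, with scores of 113.91, 117.41 and 58.43. The regions at chr10:80402348-80402889 (score 78.31) and chr10:80418392-80418842 (score 69.34) were called in replicate 2 alone.

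Among the postsynaptic genes, Homer1 held the highest-ranked region of the 6 loci. It lay at chr13:94073098-94074881, was 1784 bp wide, and scored 1468.16 in replicate 1, 1627.66 in replicate 2 and 766.17 in replicate 3. These scores put it at the 99.7, 99.6 and 98.7 percentiles of the lists, and its common rank was 99.0 ± 0.593 (SD, n = 3). It was at the top in each mouse, and the bases under a peak in all 3 mice made up 81.8% of its width, the highest share of the 14 regions and above the median of 56.5% over all shared regions. The rest of the window was sparse. The other shared region, 95.8 kb away at chr13:94169637-94170041, scored 59.13, 78.50 and 58.85, near the floor in each mouse. The Homer1 region of replicates 1 and 2 at chr13:94157377-94157793 (51.25 and 64.10) and that of replicate 3 alone at chr13:94105310-94105561 (58.65) were as weak, and the longest stretch without a peak of any mouse was 51.8 kb. Homer1 thus combined 1 region of very high rank with regions close to the lowest reported score.

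The strongest Arc region lay at chr15:74502524-74503561 (1038 bp). It scored 492.45 in replicate 1, 641.52 in replicate 2 and 278.16 in replicate 3, with common ranks of 83.8, 84.8 and 83.1 (mean 83.9 ± 0.859, SD, n = 3). Its place among shared regions was almost the same in each mouse. A weaker shared region 6.5 kb away, at chr15:74509126-74509966, scored 161.81, 127.45 and 65.90, and its common ranks were 38.4, 19.8 and 14.1. The peak there was 841 bp wide in replicate 1, 680 bp in replicate 2 and 243 bp in replicate 3, so that 28.9% of the region was under a peak in all 3 mice. On the other side, 8.6 kb from the strongest region, replicates 2 and 3 alone had a peak at chr15:74494276-74494702, with scores of 88.40 and 57.14. Replicate 1 alone had one at chr15:74522721-74523008, with a score of 62.26.

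Of the genes for secreted proteins, Nptx2 had the barest window: a single region, at chr5:145306445-145306957, and up to 43.0 kb in a row without a peak. It scored 117.39 in replicate 1, 263.04 in replicate 2 and 120.99 in replicate 3. The score of replicate 2 was the highest, and its ratio to replicate 1, 2.24, lay at the 95.1 percentile of that ratio over all shared regions, whose median was 1.22. The common ranks were 23.9, 51.4 and 48.9 (mean 41.4 ± 15.2, SD, n = 3), so in rank replicate 1 lay below the other two, which were close together. The peak widths were 509, 423 and 426 bp, and replicate 2, with the highest score, did not have the widest peak.

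Inhba had the widest regions of the 6 loci. Its strongest, at chr13:16112458-16116012, was 3555 bp wide, and 0.242% of all shared regions were at least as wide. Its peak was 2192 bp in replicate 1, 3555 bp in replicate 2 and 1723 bp in replicate 3, wider than or as wide as 99.3%, 99.9% and 99.5% of the peaks of those lists. The scores were 298.32, 432.05 and 313.63, with common ranks of 66.5, 72.1 and 86.1 (mean 74.9 ± 10.1, SD, n = 3). Wide in each mouse, the region was not of the very highest rank in any. Replicate 3 scored above replicate 1 here and at Nptx2, 2 of the 14 regions. That is near the background, since the same held for 14.1% of all shared regions. The region 10.9 kb away, at chr13:16101877-16104703, was 2827 bp wide (0.671% of shared regions at least as wide) and scored only 123.64, 134.99 and 77.18. Between them, at chr13:16108237-16110192, replicates 2 and 3 had peaks of 1891 and 957 bp with scores of 51.75 and 61.75, while replicate 1 had none. These regions made a run of wide peaks with scores from 51.75 to 432.05. The remaining shared region, at chr13:16097271-16097787, was 517 bp wide and scored 90.65, 63.67 and 51.16.

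Regions not held by all 3 mice were mostly of low rank. Their 15 peaks had percentiles within their lists from 1.87 to 59.6, with a median of 19.7, against 25.0 for such peaks over the whole series. The exception was an Inhba peak of replicate 1 alone, at chr13:16124429-16125183, which was 755 bp wide and scored 153.29, at the 59.6 percentile of its list and above the score of the shared Nptx2 region in that mouse (117.39). The other Inhba peaks of 1 mouse were at chr13:16071308-16071873 in replicate 1 (score 100.87, percentile 41.4) and chr13:16077540-16078001 in replicate 2 (score 70.71). Read depth is unknown, so a missing peak near the floor was not shown to be closed chromatin.

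The order of the loci was not the same in each mouse. By the score of the strongest region, the order in replicate 1 was Homer1, Arc, Gadd45b, Inhba, Npas4 and Nptx2, and replicate 2 differed from it only in having Nptx2 above Npas4. In replicate 3 Inhba stood above Arc and Gadd45b. Homer1 was the highest in each mouse. The ratio of replicate 3 to replicate 1 had a median of 0.56 over the 14 regions, against 0.63 over all shared regions, and that of replicate 2 to replicate 1 had a median of 1.12, against 1.22. The 5th to 95th percentiles over all shared regions ran from 0.32 to 1.33 and from 0.64 to 2.23. Only the Npas4 region at 12.0 kb and the Nptx2 region lay outside these limits, the former below and the latter just above. By construction about 5% of all shared regions lie beyond each limit, so 1 of 14 beyond a limit is near the background. Ratios of scores depend on the depth of each library, which could not be taken into account.

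**Figure D4:**
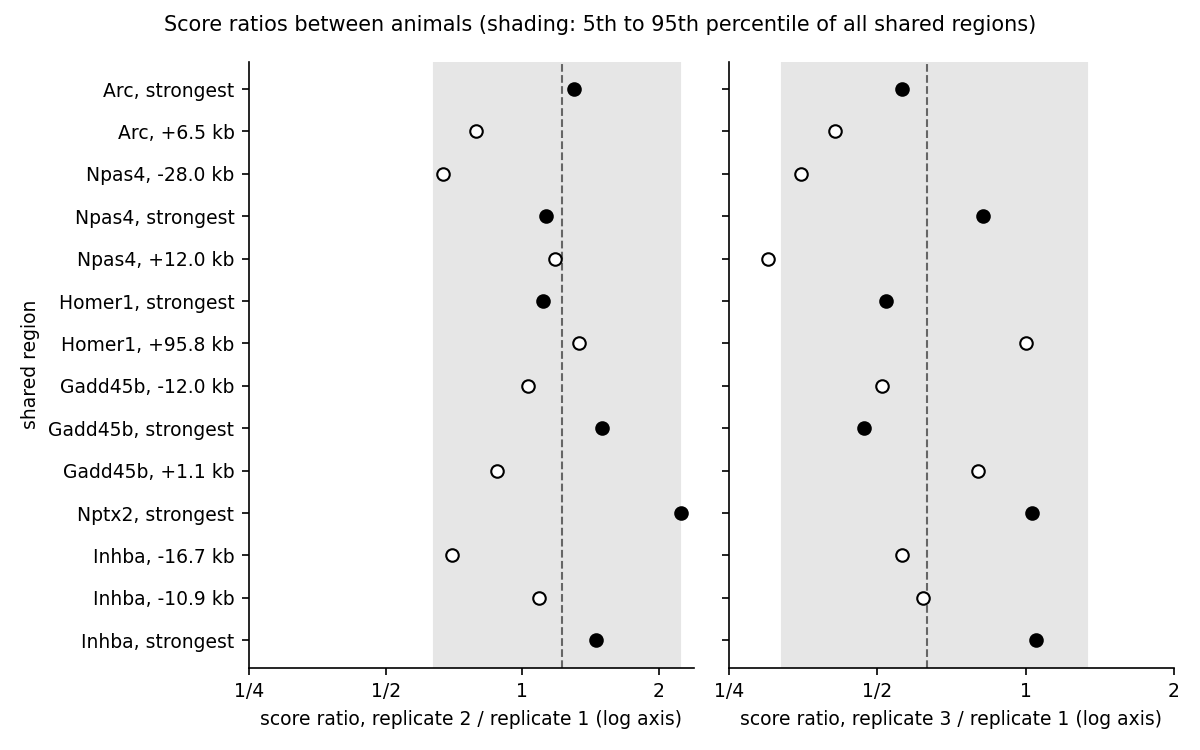
Score of replicate 2 over replicate 1 (left) and of replicate 3 over replicate 1 (right), log axes, for the 14 shared regions. Filled points are the strongest region of each locus, shading spans the 5th to 95th percentile of all shared regions and the dashed line is their median (1.22 and 0.63). The Nptx2 region is farthest right on the left panel, and the Npas4 region at 12.0 kb is farthest left on the right panel.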

How the data were processed

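Accessible chromatin was measured by ATAC-seq in 3 libraries of 1 group, grouped and numbered as the labels do. Bowtie2 was the aligner and mm9 the build, per the submitters' processing notes. The deposited files are 1 peak list per sample with a score per peak, and the peak names are those of MACS. The deposited score is the authors' value and has no unit in the files; versions, settings, duplicate removal and any Tn5 shift: not given in the sources used here. The lists hold no read counts, so depth is unknown.

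The 6 windows, members and lists were chosen with earlier results of these data known. Peaks overlapping a window were taken from lists joined over the genome, and positions count from 1. Regions described singly were, by rule, the strongest shared region of each locus and any in the highest 10% of all lists; the others were described after their values were seen. Gene names and promoters are from RefSeq (GRCm38.p6). Tissue markers could not be placed on mm9 and were not checked. Tiles ran from the first to the last region of each chromosome. Joining and coverage steps were tested on simulated lists. Alternatives changed the overlap, the score threshold, the list length, the window edges and the replicates used. Values were computed in Python 3.11.15 (pandas 2.3.3, numpy 2.4.6, scipy 1.17.1), and plots with matplotlib 3.10.9. Intervals cover counting error only.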

Additional observations from a re-analysis of the deposited data

How the results depend on the processing

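Of 41 alternative values for the 5 results over the 6 loci, 31 stayed within the spread between mice, the 95% interval of a share or a factor of 1.5 for a count. Some of the 31 could not have moved. The overlap rule leaves peaks per mouse and length under peaks as they are. Leaving out 1 of 3 mice cannot shift either of these means by a full SD. The same step could add to the 14 shared regions only those held by the remaining mice alone, at most 2. That is within the factor of 1.5. Asking for an overlap of 50% of both peaks lowered the shared regions from 14 to 9 and their share from 56.0% to 26.5%, below the main interval. The share over all regions went from 43.6% to 32.5% under the same rule, so the loci stood above the series with 1 bp and below it with 50%. The highest-scoring 50% of each list left 5 shared regions, a share of 45.5% against 50.4% of all regions. The loci stood below the series under that setting too. It also left 8.33 peaks per mouse, 1.81% of the windows under peaks and a median percentile of 76.1 within the shortened lists. Nptx2 then held 0 shared regions and each other locus 1. The same number of top peaks in every list gave 15.7 ± 3.06 peaks per mouse (SD, n = 3), windows shortened by 10 kb at each end 17.3 and lengthened ones 25.7. Leaving out 1 replicate gave 14 to 16 shared regions, 19.0 to 20.0 peaks, 2.39% to 3.32% under peaks and a percentile of 42.0 to 54.3. The share was 72.7% without replicate 1, 63.6% without replicate 2 and 66.7% without replicate 3. The shares of all regions were 52.5%, 54.2% and 65.2%, so without replicate 3 the loci were near the series. Fewer mice to match raise the share by construction. For single loci, 39 of 48 counts of shared regions stayed within the factor of 1.5. The main counts were only 1 to 3 per locus, and a change from 3 to 2 or from 2 to 3 lies within that factor. These counts are therefore a weak check. The values are descriptions of 3 mice without a comparison group, and unknown depth limits every score. No paired analysis was possible because all libraries belong to 1 group.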
